A study of Mus musculus with 144 samples.

Results

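The Schlafen genes Slfn1, Slfn2, Slfn4, Slfn5 and Slfn8 and the antiviral gene Samd9l were followed in mouse blood leukocytes and spleen cells after burn injury, trauma-hemorrhage or lipopolysaccharide (LPS). Members were the probe sets of the array whose single gene symbol in the platform annotation was one of these names, and the genes themselves had been selected on their measured changes against sham. They came to 9 of 34945 probe sets with 1 gene, and to 6 of 18193 genes, and all 6 genes passed the filter on low values in each set of arrays. One further probe set shared by Slfn4 and Slfn3 was left out because its signal belongs to neither gene alone. Every change against sham given here is therefore a description, and the calls attached to it support nothing about the genes as a group.

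Schlafen proteins are a family encoded by a gene cluster that arose by repeated duplication, and several members are induced by type I interferon. Interferons bind surface receptors, whose kinases activate STAT and IRF transcription factors, and these act through interferon-stimulated response elements (ISREs) in the promoters of target genes. In mice, Slfn1 and Slfn2 are short forms known for restraining T cell growth and keeping T cells quiescent, Slfn4 is an intermediate form known from monocytes, macrophages and neutrophils, and Slfn5 and Slfn8 are long forms with a helicase-like region. Samd9l encodes a large cytoplasmic protein that restricts poxviruses and limits the growth of blood cell precursors, and it is also induced by interferon.

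The mice had burn injury, trauma-hemorrhage (tissue trauma with blood loss) or sham treatment for either injury, and blood leukocytes and spleen cells were taken at 2 hr, 1 day, 3 day and 7 day. Separate mice received LPS, a bacterial cell-wall product, or its sham, and blood leukocytes were taken at 2 hr and 1 day. All 36 groups held 4 arrays, each from an individual mouse per the series design, which makes 144 arrays. The C57BL/6J background is stated for the LPS arm, and strain in the injury arms, age, burn size, blood loss and LPS dose are not given in the sources used here. Blood came from cardiac puncture, and red cells were lysed in both tissues of the injury arms. The trauma-hemorrhage blood titles carry the word burn beside descriptions of trauma-hemorrhage, and the burn spleen descriptions name the other injury beside titles of burn. The trauma-hemorrhage descriptions were followed for blood and the titles for spleen, so the injury named for each result rests on that reading.

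The values are MAS5 signals on a linear scale. Burn and trauma-hemorrhage arrays had a trimmed mean of 500, and the LPS arrays one of 121 to 141, so LPS signals were not set beside the others. Changes are differences of mean log2(signal + 32) between a group and the sham of its own injury, tissue and time, with the standard error (SE) of limma. A fold on this scale understates the change of a dim gene. A change was called when the Benjamini-Hochberg adjusted p over all genes tested was under 0.05. On 15 arrays the spiked hybridization controls stood above 2 times the median of their tissue, which marks dim arrays scaled up. These were all 4 trauma-hemorrhage blood arrays at 7 day, 3 of the 4 at 3 day, 3 of the 4 burn spleen arrays at 1 day, 2 burn sham spleen arrays at 2 hr and 3 single sham arrays. The single arrays were in trauma-hemorrhage sham blood at 2 hr, burn sham spleen at 3 day and trauma-hemorrhage sham spleen at 7 day. Where leaving them out kept 1 injured array, as in burn spleen at 1 day and trauma-hemorrhage blood at 3 day, that array was assumed to vary like the other groups, so any test of it rests on their spread. In a comparison without a dim array, leaving dim arrays out kept the log2 change. The adjusted p then moved only through the spread shared with other groups. Each injury and tissue was hybridized on 2 days, with replicates 1 and 2 on the first and 3 and 4 on the second, and sham and injured arrays were balanced over both. The scan record of 1 burn spleen array at 3 day was the same as that of its sham, while their values differed, and no 2 arrays of the series held identical values. In these mixed cell samples, fewer cells of a type and less RNA per cell cannot be told apart.

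The 5 Schlafen genes lie together on mouse chromosome 11, in the order Slfn5, Slfn8, Slfn2, Slfn1 and Slfn4, and Samd9l lies on chromosome 6. All 6 matched an entry of the promoter sequences of RefSeq (GRCm38.p6), and 2 carried the core of the ISRE, GAAA followed by any 2 bases and GAAA again, within 250 bases before to 50 after the start site, searched on both strands. They were Slfn5 and Slfn8. The core is in 3.4% of 32851 promoter windows of that length. The shorter motif AANNGAAA, which overlaps the core in both genes, was in the windows of all 6 members and in 23.9% of all windows. The 250 bases before the start site are shown for Slfn5 and Slfn8, which hold the core, and for Slfn4, whose changes were least like those of Slfn8. Capitals mark bases of either motif, on either strand, and the reading is 5′ to 3′ along the strand of the gene.
Slfn5 (chr11:82951852-82952101, strand +): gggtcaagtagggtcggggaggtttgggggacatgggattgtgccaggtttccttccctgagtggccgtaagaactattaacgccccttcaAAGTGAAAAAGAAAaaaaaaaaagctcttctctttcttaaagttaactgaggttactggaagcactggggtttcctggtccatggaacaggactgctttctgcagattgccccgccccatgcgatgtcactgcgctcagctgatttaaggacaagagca
Slfn8 (chr11:83020811-83021060, strand -): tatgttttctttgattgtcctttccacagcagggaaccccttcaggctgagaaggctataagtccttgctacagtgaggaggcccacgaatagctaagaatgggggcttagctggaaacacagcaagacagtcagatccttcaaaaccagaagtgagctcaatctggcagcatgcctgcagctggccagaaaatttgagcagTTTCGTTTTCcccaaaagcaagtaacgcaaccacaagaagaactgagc
Slfn4 (chr11:83174936-83175185, strand +): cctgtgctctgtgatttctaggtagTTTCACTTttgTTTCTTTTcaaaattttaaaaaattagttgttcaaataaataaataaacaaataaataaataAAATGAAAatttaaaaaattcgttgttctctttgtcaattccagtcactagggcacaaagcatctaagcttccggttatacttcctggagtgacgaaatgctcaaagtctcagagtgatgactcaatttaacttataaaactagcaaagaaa
The core began 155 bases before the start site in Slfn5 and 48 bases before it in Slfn8. The start sites of Slfn5 and Slfn4 lie inside the spans that RefSeq annotates for these genes, so printed bases of both fall within the annotated gene. A match of letters is a description and does not show binding.

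Over the 18 comparisons with sham, 36 of 108 member values were called, 22 of them higher and 14 lower. Of all genes tested, 0% to 49.8% were called in either direction in a comparison. Slfn4 was called in 9 comparisons, higher in each of them, and Slfn5 in 3, also higher in each. Samd9l was called lower in 6 and higher in 3, and Slfn8 lower in 4 and higher in 3. Slfn1 was called higher in 3 and lower in 2, and Slfn2 higher in 1 and lower in 2. In what follows the share of all genes tested that was called in the same direction stands in parentheses after the members' count, and since the genes were selected on these contrasts nothing is read from the pair.

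In blood after burn, 1 member was called lower at 2 hr (1.13%). Slfn1 (log2 -0.90 ± 0.34, SE) and Slfn2 (-0.68 ± 0.25, SE) were not called there but had an unadjusted p under 0.05 in limma. Slfn1 lay below all shams, as did 6.65% of genes. It was called on the day of replicates 1 and 2 alone, and Slfn2 with quantile normalization. At 1 day 3 were called lower (16.4%) and 1 higher (9.29%), and 5 lay below all shams, as did 18.2% of genes. None was called at 3 day, where 1.09% of genes were called in either direction, and Slfn1 and Slfn4 had an unadjusted p under 0.05 in limma. At 7 day 2 were called higher (1.66%). After trauma-hemorrhage 3 were called higher in blood at 2 hr (1.98%), where 5 lay above all shams, as did 3.31% of genes. At 1 day 2 were called higher (7.24%), at 3 day 1 higher (4.77%), and at 7 day 1 lower (2.08%).

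In spleen after burn, 1 member was called lower at 2 hr (1.13%) and 3 at 1 day (27.8%). At 3 day 1 was called higher (0.5%), and at 7 day 1 higher (8.89%) and 2 lower (7.86%). After trauma-hemorrhage all 6 were called higher in spleen at 2 hr (2.46%), and all 6 lay above all shams, as did 6.36% of genes. At 1 day 3 were called higher (0.633%). At 3 day 1 was called higher (5.29%) and 2 lower (2.43%), and at 7 day 1 lower (2.32%).

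**Figure D1:**
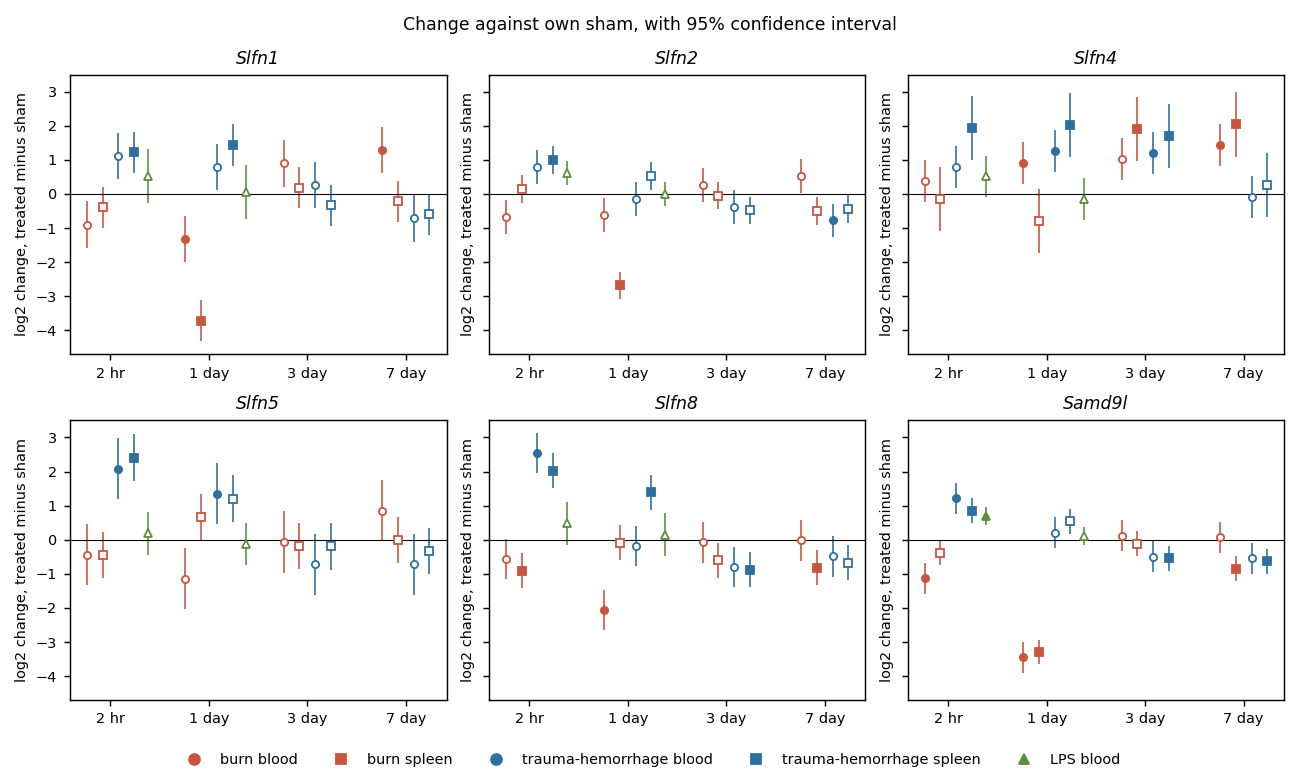
Change of each gene against its own sham, as log2(signal + 32), by time after treatment on the horizontal axis. Points are the limma estimates from 4 treated and 4 sham arrays, bars are 95% confidence intervals, filled points were called at adjusted p under 0.05 and open points were not. At 1 day after burn Samd9l lay lowest in blood, at -3.45, and Slfn1 lowest in spleen, at -3.71, where 3 of the 4 burn arrays were dim and Samd9l lay lower on the remaining array (-3.66 against -2.22), while Slfn5 and Slfn8 lay highest at 2 hr after trauma-hemorrhage.

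Slfn1, a short form linked to the arrest of T cell growth, was lower at 1 day after burn and higher early after trauma-hemorrhage. In burn blood at 1 day its signals were 1199, 977, 1433 and 1040.1, against 3741, 2889.6, 2699.9 and 2451 in the shams. All burn arrays lay below all sham arrays, and the log2 change was -1.32 ± 0.34 (SE), 2.49-fold lower. In burn spleen at 1 day the signals were 23.9, 46.9, 94.9 and 295, against 1446, 1633, 1258 and 1678 in the shams. The groups again did not overlap, with a log2 change of -3.71 ± 0.30 (SE), 13.1-fold lower. The first 3 of these burn spleen arrays were dim, with the control level of the group reaching 4.31 times the spleen median, and the Slfn1 signals on 2 of them were near the added 32. With the 3 dim arrays left out, 1 burn array remained, and the log2 change on it was -2.22. At 7 day after burn in blood Slfn1 was called higher, with 7905, 7265, 7561 and 6267 against 3325, 2218, 4180.2 and 2439 and a log2 change of 1.28 ± 0.34 (SE). All 4 burn arrays lay above all shams, but the call was lost without replicate 1, 2 or 3 of the injured arrays or replicate 2 or 4 of the sham arrays (log2 1.15 to 1.28, adjusted p = 0.0666 to 0.152 in limma).

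After trauma-hemorrhage, Slfn1 in the spleen at 2 hr measured 6302, 5802, 5715 and 6730.3, against 2705, 2761, 2389 and 2592 in the shams. These groups lay far apart, and the log2 change was 1.22 ± 0.30 (SE), 2.33-fold higher. At 1 day it measured 5402, 3367, 7583 and 7420.1, against 2275, 2774, 1868 and 1575, a log2 change of 1.43 ± 0.30 (SE) without overlap. By 3 day and 7 day the injured and sham arrays overlapped in spleen. In blood at 2 hr the injured arrays measured 13468, 14164, 11569 and 12243 and the shams 1971, 5343, 10786 and 10497. The injured arrays lay above all shams, but the shams were spread widely, with replicates 3 and 4 near the injured level. Of these shams 1 was dim. The log2 change of 1.12 ± 0.34 (SE) was not called (limma adjusted p = 0.0508), nor was it without the dim arrays. It was called without replicate 3 or 4 of the sham arrays (adjusted p = 0.0121 to 0.0122 in limma), with the mean of all its probe sets, and with quantile normalization (log2 1.18, adjusted p = 0.0296 in limma). Replicates 3 and 4 were hybridized on a day of their own, and the log2 change was 2.08 on the day of replicates 1 and 2 and 0.16 on the other. With the day as a block it was called (log2 1.12, adjusted p = 0.0492 in limma). A second Slfn1 probe set was dim, with a mean signal of 26.6 over the injury arrays, and did not pass the filter, so no change is given for it.

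Slfn2, the short form whose loss in mice takes T cells out of quiescence, had changes most like those of Slfn1 among all genes. In burn spleen at 1 day it measured 672, 476, 606 and 869, against 4693, 4279, 3576 and 4690.0 in the shams. The groups did not overlap, and the log2 change was -2.68 ± 0.20 (SE), 6.41-fold lower, and -2.26 on the 1 array that was not dim. In burn blood at 1 day all injured arrays also lay below all shams, at 3321 to 4149.6 against 4949 to 7566. That log2 change of -0.61 ± 0.25 (SE) was not called (limma adjusted p = 0.0601). It was called with quantile normalization (log2 -0.72, adjusted p = 0.00759 in limma), without dim arrays (log2 -0.61, adjusted p = 0.0278 in limma), on the day of replicates 1 and 2 (log2 -0.84, adjusted p = 0.0286 in limma) and in a fit of the 8 arrays alone (log2 -0.61, adjusted p = 0.00799 in limma). None of these 8 arrays was dim, so leaving dim arrays out changed only the spread shared with other groups. In the spleen at 2 hr after trauma-hemorrhage Slfn2 measured 7267, 8230.0, 10142 and 11435, against 5054, 4482, 4154 and 4633. It was called higher, with no overlap and a log2 change of 0.99 ± 0.20 (SE). Later in spleen Slfn2 was not called, at log2 -0.50 ± 0.20 at 7 day after burn. After trauma-hemorrhage it was -0.48 ± 0.20 at 3 day and -0.45 ± 0.20 at 7 day (SE), not called either. Each of these values had an unadjusted p under 0.05 in limma, and each was called with the control level as a covariate and without dim arrays.

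The Slfn2 arrays of blood at 2 hr after trauma-hemorrhage read 15547, 16267, 17587 and 13458, against 5619, 6859, 14696 and 11859 in the shams. Sham replicates 3 and 4 were again the high ones, sham replicate 3 lay above the lowest injured array, and the log2 change of 0.79 ± 0.25 (SE) was not called (limma adjusted p = 0.0618). It was called without replicate 3 or 4 of the sham arrays (log2 0.92 to 1.02, adjusted p = 0.0116 to 0.031 in limma) and with quantile normalization (log2 0.85, adjusted p = 0.00984 in limma). By hybridization day the log2 change was 1.35 for replicates 1 and 2 and 0.22 for replicates 3 and 4, and with the day as a block it was not called (log2 0.79, adjusted p = 0.0648 in limma). The other members also had the smaller change on the second day in this comparison. In the same order the log2 changes were 1.67 and 0.75 for Samd9l, 3.04 and 2.04 for Slfn8, 2.51 and 1.67 for Slfn5, and 1.08 and 0.50 for Slfn4. At 7 day after trauma-hemorrhage in blood Slfn2 was called lower, with 5202, 6011, 3077 and 5899 against 6592, 10483, 7914 and 8963 and a log2 change of -0.77 ± 0.25 (SE). All 4 of these injured arrays were dim, and the value cannot be given without them. The call was lost with the control level as a covariate (log2 -0.42, adjusted p = 0.853 in limma), with a pseudocount of 1, in a fit of the 8 arrays alone, and without replicate 1 or 3 of the injured arrays or replicate 2, 3 or 4 of the sham arrays (log2 -0.80 to -0.55, adjusted p = 0.0515 to 0.286 in limma).

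Slfn4, the intermediate form of myeloid cells, was called higher late after burn in both tissues, as well as after trauma-hemorrhage. Slfn1 was also called higher late after burn, but in blood alone. In burn spleen at 3 day Slfn4 measured 10113, 8833, 8913 and 5472, against 2076, 1999.5, 2689 and 1947 in the shams, a log2 change of 1.90 ± 0.47 (SE). At 7 day it measured 11258, 10908, 7850.1 and 10528, against 2162, 2607, 2180.2 and 2788, a log2 change of 2.04 ± 0.47 (SE). Every burn array exceeded every sham array at both times, and the change at 7 day was 4.11-fold. At 2 hr and 1 day after burn the spleen groups overlapped. The spleen call at 3 day was lost with quantile normalization (log2 1.93, adjusted p = 0.0531 in limma), with every probe set as a feature of its own, and without replicate 1, 2 or 3 of the injured arrays or replicate 1, 2 or 4 of the sham arrays (log2 1.79 to 1.88, adjusted p = 0.0719 to 0.187 in limma).

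In burn blood Slfn4 was called higher at 1 day and 7 day. At 1 day it measured 19422, 19659, 27244 and 18249, against 15745, 9924, 14276 and 6897, a log2 change of 0.90 ± 0.31 (SE), while the other 5 members lay below all shams. That call was lost with quantile normalization (log2 0.71, adjusted p = 0.08 in limma) and without replicate 3 of the injured arrays or replicate 2 or 4 of the sham arrays (log2 0.67 to 0.85, adjusted p = 0.0589 to 0.141 in limma). At 3 day the injured arrays, 18567 to 25422, lay above the shams, 8705 to 14011, without a call (log2 1.01 ± 0.31, SE; limma adjusted p = 0.0983). It was called there with quantile normalization (log2 1.25, adjusted p = 0.0152 in limma) and in a fit of the 8 arrays alone (log2 1.01, adjusted p = 0.000933 in limma). At 7 day it measured 20097, 23769.5, 26130.2 and 19486, against 9940.4, 5719, 9785 and 7884. The groups did not overlap, and the log2 change was 1.44 ± 0.31 (SE), 2.72-fold higher.

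After trauma-hemorrhage Slfn4 was called higher in the spleen at 2 hr, 1 day and 3 day. It measured 11212, 9602, 13620.3 and 14105 at 2 hr, against 4139.7, 3340.0, 4412 and 1516 in the shams, a log2 change of 1.94 ± 0.47 (SE). At 1 day it measured 11472, 5830.0, 22244 and 20348, against 2146, 5375, 2838 and 3349.8, a log2 change of 2.02 ± 0.47 (SE). At 3 day it measured 4306, 8185, 9350.5 and 5111, against 1660.2, 2118, 2013 and 2004, a log2 change of 1.71 ± 0.47 (SE). None of these groups overlapped its sham. The call at 2 hr was lost without replicate 4 of the sham arrays (log2 1.60, adjusted p = 0.0641 in limma). That at 1 day was lost without replicate 3 or 4 of the injured arrays or replicate 1 of the sham arrays (log2 1.77 to 1.82, adjusted p = 0.0951 to 0.147 in limma), and that at 3 day without replicate 2 or 3 of the injured arrays (log2 1.53 to 1.59, adjusted p = 0.0515 to 0.0532 in limma). At 7 day the groups overlapped, and sham replicate 4 stood at 10279.9 against 696 to 1529 in the other shams.

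In trauma-hemorrhage blood Slfn4 lay above all shams at 2 hr without a call (log2 0.79 ± 0.31, SE; limma adjusted p = 0.185). It was called higher at 1 day, with 37574, 34845, 25355 and 20469.8 against 14579, 7338, 16269 and 11454 and a log2 change of 1.27 ± 0.31 (SE). At 3 day it was called higher too, with 19999, 21371, 18541 and 20762 against 9560.2, 9596, 6102 and 10643 and a log2 change of 1.19 ± 0.31 (SE). Injured and sham arrays did not overlap at either time. Quantile normalization ended both calls, with log2 0.76, adjusted p = 0.0868 at 1 day and log2 0.67, adjusted p = 0.168 at 3 day in limma. With the 1 injured array at 3 day that was not dim the call was lost as well (log2 1.07, adjusted p = 0.478 in limma).

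Neutrophil markers moved with Slfn4 in part of these groups. In burn spleen at 7 day 10 of 11 tested markers rose, and their summed signal was 84046 to 123112, against 22539 to 27474 in the shams. At 3 day 2 of 11 rose, with sums of 54638 to 87921 against 22416 to 39470.0. In burn blood at 1 day and 7 day 7 and 5 of 11 rose, with sums at 7 day of 103519 to 136226 against 44223 to 70402. In the spleen at 2 hr after trauma-hemorrhage 0 of the 11 passed in limma and 0 had an unadjusted p under 0.05, with sums of 54024 to 67660.1 against 43299.6 to 64696, while Slfn4 was 3.83-fold higher. In trauma-hemorrhage blood at 1 day and 3 day 5 and 6 of 11 rose, the former 2 with quantile normalization, beside 8 and 4 of 8 platelet markers and 6 and 6 of 9 erythroid markers. No listed marker had a value of 0 on any array, but MAS5 rarely gives a 0 and a gene that is absent still has a signal. The part of neutrophils in the Slfn4 changes was not tested.

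**Figure D2:**
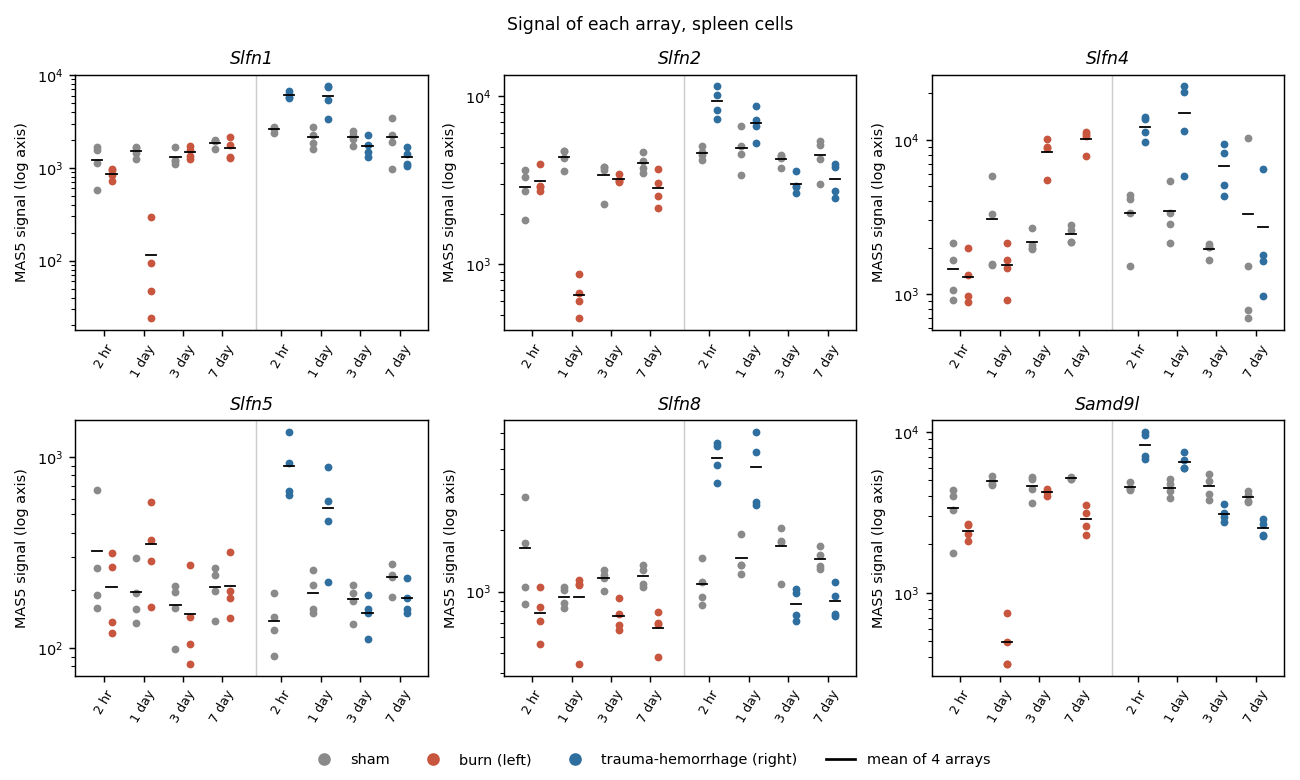
MAS5 signal of each spleen array on a log axis, by time after burn (left) and trauma-hemorrhage (right). Each dot is 1 array, grey for sham and coloured for injured, and the bar is the mean of 4. Slfn1, Slfn2 and Samd9l dropped below every sham at 1 day after burn, and Slfn4 stood above every sham at 3 day and 7 day.

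Slfn5 is a long form induced by interferon and found in the nucleus. On its main probe set, the brightest, it was called higher in 3 comparisons and lower in none. Its sham signals ran from 90.7 to 668 in spleen. In blood at 2 hr after trauma-hemorrhage it measured 2306, 709, 639.8 and 1147, against 155, 254, 169 and 359 in the shams. The groups did not overlap, and the log2 change was 2.09 ± 0.45 (SE), 4.25-fold higher. In spleen at 2 hr it measured 628, 665, 1349.7 and 931, against 146, 123, 195 and 90.7, a log2 change of 2.41 ± 0.34 (SE), again without overlap. The other 2 Slfn5 probe sets gave log2 changes of 2.83 ± 0.48 and 2.81 ± 0.43 (SE) in blood and 2.13 ± 0.38 and 2.45 ± 0.35 (SE) in spleen at that time. All 3 probe sets therefore moved the same way, and all were called.

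At 1 day after trauma-hemorrhage Slfn5 was called higher in blood, with 148, 525, 562 and 426 against 76.9, 104, 208 and 149, where injured replicate 1 lay among the shams. Neither of the other 2 probe sets was called there, at 0.48 ± 0.48 and 0.69 ± 0.43 (SE). For the main probe set the log2 change of 1.35 ± 0.45 (SE) lost its call in a fit of the 8 arrays alone (log2 1.35, adjusted p = 0.0583 in limma) and without replicate 2, 3 or 4 of the injured arrays or replicate 1 or 2 of the sham arrays (log2 1.17 to 1.29, adjusted p = 0.0571 to 0.102 in limma). In spleen at 1 day the log2 change of 1.21 ± 0.34 (SE) was not called for this probe set (limma adjusted p = 0.0775). It was called without replicate 2 of the injured arrays (log2 1.55, adjusted p = 0.00516 in limma) and without the dim arrays (log2 1.21, adjusted p = 0.0235 in limma). No array of this comparison was dim. The other 2 probe sets were called there, at 1.71 ± 0.38 and 1.79 ± 0.35 (SE). After burn no Slfn5 value of the main probe set was called. In burn blood at 2 hr its log2 change was -0.44 ± 0.45 (SE). The other probe sets disagreed there, with 0.69 ± 0.48 (SE), not called, and -1.52 ± 0.43 (SE), called lower. In burn blood at 1 day all burn arrays of the main probe set lay below all shams, 18.2 to 164 against 168 to 331. The log2 change was -1.14 ± 0.45 (SE, limma adjusted p = 0.0521). This value was called without replicate 1 or 2 of the injured arrays or replicate 4 of the sham arrays (log2 -1.37 to -1.29, adjusted p = 0.0303 to 0.0475 in limma). It was also called without the dim arrays (log2 -1.14, adjusted p = 0.0464 in limma), of which this comparison held none. The other Slfn5 probe sets disagreed there, with 0.50 ± 0.48 (SE), not called, and -1.42 ± 0.43 (SE), called lower. For burn spleen at 1 day the log2 change was 0.67 ± 0.34 (SE), called without replicate 4 of the injured arrays or replicate 1 of the sham arrays (log2 0.86 to 0.95, adjusted p = 0.0199 to 0.0441 in limma), and -0.16 without the dim arrays, so its sign rested on them. The other probe sets differed in sign there as well, with 1.07 ± 0.38 (SE), called higher, and -0.23 ± 0.35 (SE), not called.

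Slfn8, the other long form, had its largest rise at 2 hr after trauma-hemorrhage. In blood it measured 5337, 4608, 3022 and 3619, against 567, 580.2, 923 and 663 in the shams, a log2 change of 2.54 ± 0.29 (SE) and 5.81-fold. In spleen it measured 3409.9, 4169, 5183 and 5324, against 858, 1110.5, 936 and 1465, a log2 change of 2.02 ± 0.26 (SE) and 4.07-fold. The lowest injured array was over 2 times the highest sham in both tissues. At 1 day the spleen arrays read 2657, 2736, 4798 and 6038, against 1342, 1346, 1919 and 1216, a called log2 change of 1.39 ± 0.26 (SE). In blood at 1 day Slfn8 was not called (log2 -0.19 ± 0.29, SE). It measured 1083, 1111, 1004 and 1372, against 1203 to 1355 in the shams, so the injured arrays lay on both sides of the sham range. In spleen at 3 day it was called lower, at 721 to 1025 against 1083 to 2051 and log2 -0.88 ± 0.26 (SE), a call lost without replicate 3 or 4 of the injured arrays or replicate 1, 2 or 3 of the sham arrays (log2 -0.85 to -0.77, adjusted p = 0.0622 to 0.104 in limma). In blood at 3 day its log2 change of -0.79 ± 0.29 (SE) was not called (limma adjusted p = 0.0628), was called without replicate 1 or 3 of the injured arrays or replicate 3 of the sham arrays (log2 -1.05 to -0.89, adjusted p = 0.019 to 0.0469 in limma), and was -0.19 on the 1 injured array that was not dim.

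After burn Slfn8 was called lower in blood at 1 day, with 189.7, 213, 213 and 144 against 742, 1055, 775 and 1014. The groups lay far apart, and the log2 change was -2.06 ± 0.29 (SE), 4.17-fold lower. The burn spleen arrays at 1 day read 1083, 1088, 1142 and 442, against 828, 1047, 1017 and 878 in the shams. Here 1 array, replicate 4, lay below all shams and the 3 dim arrays lay above them. The log2 change was -0.09 ± 0.26 (SE) over all arrays, not called. It was -1.03 on replicate 4 alone, which stood far from its group and was the array that was not dim. With the control level as a covariate, a setting that kept every array, the value was called, so the result over all arrays depends on how the dim arrays are treated. In spleen at 2 hr after burn Slfn8 was called lower with overlapping groups, at 551, 836, 1053 and 716 against 1718, 1055, 2918 and 871 and log2 -0.91 ± 0.26 (SE). Sham replicates 1 and 3, both dim, were the high ones. The call was lost without the dim arrays (log2 -0.31, adjusted p = 0.634 in limma), with the control level as a covariate, in a fit of the 8 arrays alone, and without replicate 1 or 4 of the injured arrays or replicate 1 or 3 of the sham arrays (log2 -0.87 to -0.58, adjusted p = 0.0679 to 0.249 in limma). At 7 day in burn spleen it was called lower without overlap, at 478 to 789.9 against 1048 to 1347 and log2 -0.82 ± 0.26 (SE). That call was lost with quantile normalization (log2 -0.82, adjusted p = 0.0609 in limma) and without replicate 3 of the injured arrays or replicate 1 of the sham arrays (log2 -0.76 to -0.68, adjusted p = 0.0583 to 0.108 in limma).

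Samd9l, the poxvirus restriction factor, had the widest fall of the 6 in blood. At 1 day after burn its blood arrays read 738, 618, 491 and 258, against 6077, 6566, 5125 and 5176 in the shams. No burn array came near a sham, and the log2 change was -3.45 ± 0.23 (SE), 10.9-fold lower. In burn spleen at 1 day they read 363, 755, 499 and 361, against 4950.5, 4742, 5343 and 4696, a log2 change of -3.30 ± 0.18 (SE), 9.82-fold lower, and -3.66 on the array that was not dim. The fall was present at 2 hr in blood, with 2319, 2040.2, 2216 and 2903 against 5115, 5266, 5076 and 5228 and log2 -1.13 ± 0.23 (SE). In spleen at 2 hr the log2 change of -0.39 ± 0.18 (SE) was not called, and it was called without the dim arrays (log2 -0.78, adjusted p = 0.00117 in limma), with quantile normalization and without replicate 3 of the sham arrays (log2 -0.66, adjusted p = 0.0106 in limma). At 3 day after burn neither tissue was called and both overlapped their shams, at 5359.7 to 6985 in blood and 3974 to 4392 in spleen. At 7 day the burn spleen was called lower once more, with 3129.7, 2281, 2589 and 3540.4 against 5142, 5135, 5225 and 5090.5 and log2 -0.85 ± 0.18 (SE), without overlap.

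After trauma-hemorrhage Samd9l was called higher at 2 hr in both tissues. In blood it measured 11140.1, 8514, 5529 and 7031, against 2993, 3079, 3892 and 3484, a log2 change of 1.21 ± 0.23 (SE). In spleen it measured 7112, 6788, 9507 and 9994, against 4344, 4891, 4511 and 4397, a log2 change of 0.86 ± 0.18 (SE). Neither tissue overlapped its shams. At 1 day the spleen arrays, 5983 to 7477, still lay above the shams, 3867 to 5119, without a call (log2 0.54 ± 0.18, SE, limma adjusted p = 0.215). The value was called without the dim arrays (log2 0.54, adjusted p = 0.0131 in limma), of which this comparison held none. In blood from 1 day on the arrays overlapped the shams, and the log2 changes of -0.50 ± 0.23 at 3 day and -0.54 ± 0.23 at 7 day (SE) were called only without replicate 3 of the injured arrays (log2 -0.65, adjusted p = 0.0453 in limma) and without replicate 2 of the injured arrays (log2 -0.74, adjusted p = 0.0291 in limma), in that order. Later the spleen was called lower. At 3 day it read 2741 to 3588 against 3782 to 5444, log2 -0.55 ± 0.18 (SE), a call lost with a pseudocount of 1, without the filter, with every probe set as a feature of its own, and without replicate 1, 2, 3 or 4 of the injured arrays or replicate 2, 3 or 4 of the sham arrays (log2 -0.62 to -0.46, adjusted p = 0.0558 to 0.136 in limma). At 7 day it read 2266 to 2892 against 3644 to 4326, log2 -0.64 ± 0.18 (SE), a call lost in a fit of the 8 arrays alone (log2 -0.64, adjusted p = 0.0988 in limma) and without replicate 1 of the injured arrays or replicate 1 of the sham arrays (log2 -0.59, adjusted p = 0.0573 to 0.0596 in limma).

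**Figure D3:**
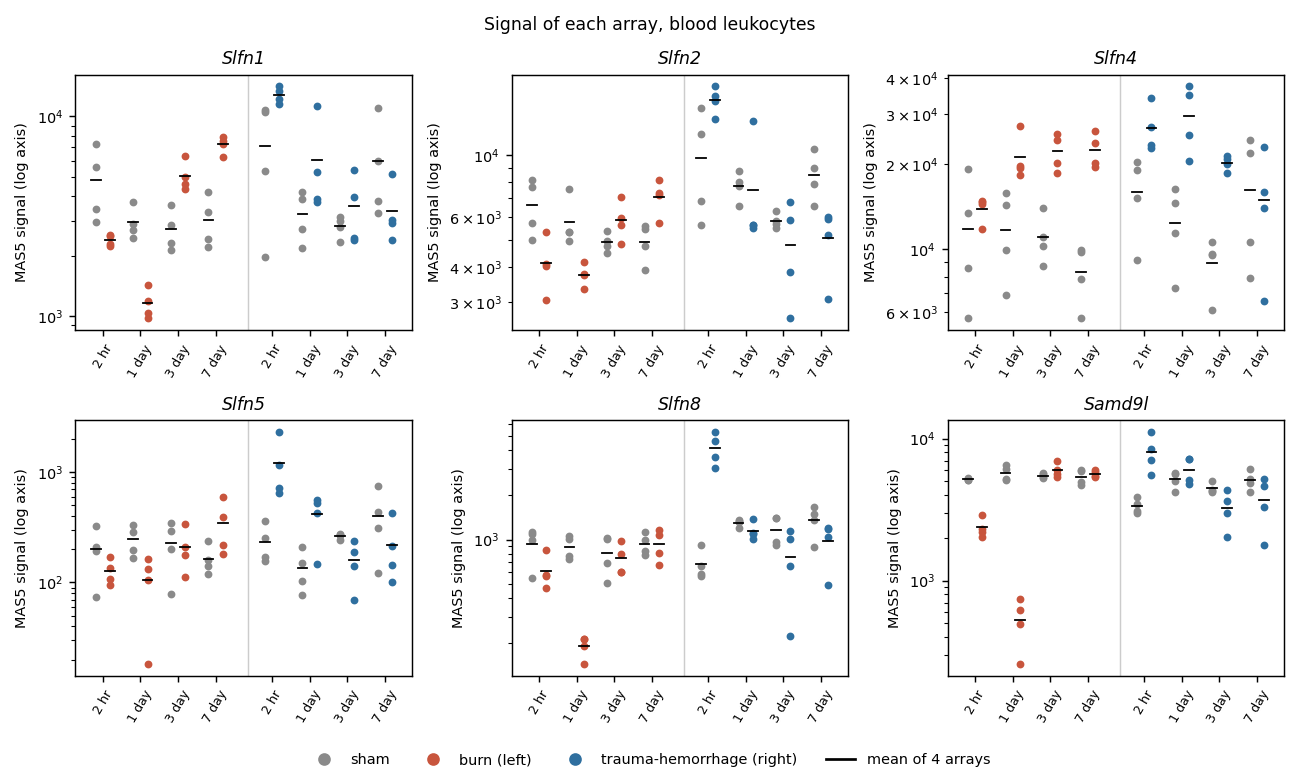
MAS5 signal of each blood array on a log axis, by time after burn (left) and trauma-hemorrhage (right). Each dot is 1 array, grey for sham and coloured for injured, and the bar is the mean of 4. Samd9l and Slfn8 stood far below their shams at 1 day after burn, Slfn8 and Slfn5 far above them at 2 hr after trauma-hemorrhage, and the trauma-hemorrhage shams of Slfn1 at 2 hr spread from 1971 to 10786.

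Lymphocyte markers moved with the burn changes at 1 day. In blood 7 of 8 tested B cell markers, 6 of 9 T cell markers and 6 of 7 NK cell markers fell. The summed B cell signal was 4016 to 5311, against 40650.4 to 46175 in the shams, and the T cell sum 13271 to 18385 against 39025 to 45049. In spleen 7 of 8, 8 of 9 and 6 of 7 fell, with B cell sums of 13339 to 15682 against 43865 to 51802. With the 1 array that was not dim, 5 of 9 T cell markers passed as lower there, on a spread taken from the other groups. Of 8 monocyte markers 3 fell in blood and 5 in spleen. Their part in the lower signals of Slfn1, Slfn2, Slfn8 and Samd9l was not tested. In trauma-hemorrhage blood at 2 hr 4 of 8 B cell markers fell and 2 of 9 T cell markers rose, with T cell sums of 44750.1 to 53180.0 against 14430.2 to 51248. At 1 day 6 of 8 B cell and 4 of 9 T cell markers fell there, and the part of these shifts in the higher member signals was not tested. In the spleen at 7 day after burn, where Samd9l and Slfn8 were called lower, 8 of 9 T cell markers fell and 8 of 8 erythroid markers rose, with erythroid sums of 46854 to 76209.5 against 5569.8 to 9249. In the spleen at 3 day and 7 day after trauma-hemorrhage 7 and 5 of 9 T cell markers fell and 5 and 8 of 8 erythroid markers rose, where 5.75% of all genes rose at 7 day. Of the markers listed for the labelled cells, 9 of 11 for T cells, 8 of 9 for B cells and 8 of 11 for monocytes passed the filter on low values in spleen, and as many in blood.

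Of 5 other Schlafen genes listed, Slfn9 and the pseudogene Slfn10-ps were tested. In burn spleen at 1 day Slfn9 was called higher (log2 1.28 ± 0.34, SE; mean signal 429.7 ± 210.2 against 148 ± 52.9, SD, n = 4) and Slfn10-ps lower (log2 -1.38 ± 0.37, SE), on arrays of which 3 were dim. In trauma-hemorrhage blood at 3 day Slfn10-ps was called lower (log2 -1.16 ± 0.35, SE). The 2 hr log2 changes of Slfn9 after trauma-hemorrhage were 1.30 ± 0.40 in blood and 1.05 ± 0.34 in spleen (SE), neither of them called. The Schlafen genes are related in sequence, and cross-hybridization between relatives was not tested.

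The next comparison asked whether the members' changes differed between the injuries. A moderated F test in limma compared the burn and trauma-hemorrhage effects over the 4 times. It is built from the same contrasts with sham for which the genes were proposed, so it is no independent evidence. In blood 5 of 6 members differed, against 19.8% of all genes tested, and in spleen all 6, against 19.9%. In blood the limma adjusted p was 8.15e-14 for Samd9l, 7.52e-08 for Slfn8, 6.00e-06 for Slfn1, 0.000202 for Slfn5 and 0.000286 for Slfn2. Slfn4 missed the threshold (0.0529), and it passed with quantile normalization (0.00557 in limma) and when each of 14 arrays was left out in turn. In spleen the limma adjusted p was 1.42e-16 for Samd9l, 1.93e-13 for Slfn1, 3.08e-12 for Slfn2, 1.50e-08 for Slfn8, 0.000169 for Slfn5 and 0.000276 for Slfn4.

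Most intervals that left out 0 were at 2 hr and 1 day. In blood the trauma-hemorrhage effect exceeded the burn effect at 2 hr by log2 3.10 (95% interval 2.27 to 3.94) for Slfn8, and at 1 day by 3.66 (95% interval 3.02 to 4.30) for Samd9l. In spleen at 1 day it exceeded it by 5.15 (95% interval 4.29 to 6.00) for Slfn1, 3.83 (95% interval 3.33 to 4.34) for Samd9l and 3.20 (95% interval 2.63 to 3.77) for Slfn2. Of the burn spleen arrays at 1 day 3 were dim. On the array that was not dim the burn change was -2.22 for Slfn1, against -3.71 over all arrays. For Samd9l it was -3.66 against -3.30, so the order of these 2 genes rests on the dim arrays. Slfn4 differed in the spleen by 2.08 (95% interval 0.75 to 3.42) at 2 hr and 2.82 (95% interval 1.49 to 4.15) at 1 day, in the same direction. At 3 day every interval in both tissues held 0. At 7 day the order turned for some members. In blood the trauma-hemorrhage effect minus the burn effect was -2.00 (95% interval -2.96 to -1.04) for Slfn1, -1.57 (95% interval -2.84 to -0.30) for Slfn5, -1.55 (95% interval -2.41 to -0.68) for Slfn4 and -1.30 (95% interval -2.00 to -0.61) for Slfn2, where all injured trauma-hemorrhage arrays were dim. In spleen Slfn4 turned as well, at -1.78 (95% interval -3.11 to -0.45). The injuries were hybridized on different days, so each effect was taken against shams of its own days.

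**Figure D4:**
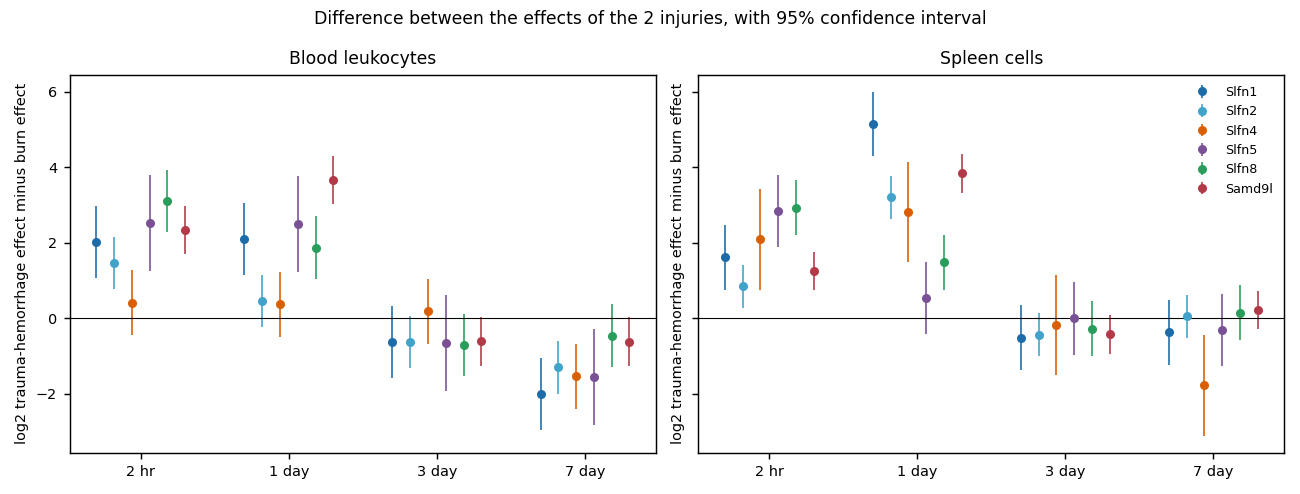
Trauma-hemorrhage effect minus burn effect of each gene on the log2(signal + 32) scale, by time, in blood (left) and spleen (right). Points are limma estimates and bars 95% confidence intervals. Values above 0 mean a higher effect after trauma-hemorrhage, and at 2 hr all 6 genes lay above 0 in both tissues, Slfn4 in blood with an interval that held 0.

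After LPS 1 member value was called. At 2 hr Samd9l measured 2468, 1917, 2067 and 2092 with LPS, against 1309.9, 998, 1376 and 1618 in the shams. The groups did not overlap, and the log2 change was 0.69 ± 0.13 (SE), where 1.5% of all genes were called higher. The call was lost in a fit of the 8 arrays alone (log2 0.69, adjusted p = 0.112 in limma). Slfn2 measured 2808, 2044, 2369 and 2523, against 1128, 1469.8, 2133 and 1744, at log2 0.61 ± 0.17 (SE), and was called only without replicate 3 of the sham arrays (log2 0.75, adjusted p = 0.028 in limma). The log2 changes of the other 4 members at 2 hr lay between 0.19 and 0.53 with overlapping groups. The value of 0.19 was that of Slfn5 on its main probe set. Its other probe sets gave 1.04 ± 0.32 and 0.40 ± 0.23 (SE), neither of them called. At 1 day 0 of 6 members were called in limma (0% of all genes), and 0 had an unadjusted p under 0.05. The 6 log2 changes at 1 day lay between -0.15 and 0.15. The difference between the LPS effects at 2 hr and 1 day passed for 0 of 6 members in limma (0.236% of all genes), with adjusted p from 0.183 for Samd9l to 0.794 for Slfn5. Samd9l and Slfn2 had an unadjusted p under 0.05 there, with differences of 0.57 and 0.61 (log2).

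The next comparisons set shams against shams. The injured arrays of the tissue entered these fits through the shared estimate of spread, and the same shams entered the contrasts on which the genes were selected. Among the 4 times in sham arrays 0 of 6 members differed in either tissue by the limma F test, where 2.61% of genes did in blood and 5.63% in spleen. The smallest adjusted p was 0.118 for Slfn1 in blood and 0.0734 for Samd9l in spleen. Unadjusted, Slfn1 and Slfn8 had p under 0.05 in blood and Samd9l in spleen. Slfn1 passed in blood without replicate 1 of the trauma-hemorrhage shams at 2 hr (limma adjusted p = 0.00335). Samd9l passed in spleen without replicate 2 of the burn arrays at 1 day (0.0434) or replicate 2 (0.048) or 4 (0.0207) of the burn shams at 2 hr, and Slfn4 without replicate 4 of the trauma-hemorrhage shams at 7 day (0.0156).

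Between sham blood and sham spleen, each with 32 arrays, 5 of 6 members differed in limma, as did 55.3% of all genes. Of these 4 were higher in blood (13.4% of genes) and 1 lower (41.9%). Slfn4 was higher in blood by log2 2.30 (adjusted p = 2.60e-28 in limma), with a lowest, median and highest signal of 5719, 10460 and 24286 in blood and 696, 2132 and 10280 in spleen. Slfn1 was higher in blood by 1.03, with a median of 3199 against 1793, and Slfn2 by 0.70, with a median of 5757 against 4199.8. Slfn8 was lower in blood, at log2 -0.38, with a median of 997 against 1246. Samd9l was higher in blood by 0.17 (0.0437 in limma), a call lost with quantile normalization (0.941), without dim arrays (0.135) and when each of 24 arrays was left out in turn. Slfn5 did not pass (0.527), with medians of 210 and 194. Blood and spleen were hybridized on different days, so tissue and day cannot be told apart here.

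In the order of the 16 group means of each tissue, trauma-hemorrhage at 2 hr was highest for Slfn1, Slfn2 and Slfn5 and burn at 1 day lowest for Slfn1 and Slfn2, in both tissues. Slfn1 ran from 12861 ± 1172 to 1162 ± 203 in blood and from 6137 ± 472 to 115 ± 124 in spleen (SD, n = 4). Slfn4 was highest at 1 day after trauma-hemorrhage in both tissues, at 29561 ± 8009.9 in blood and 14974 ± 7694 in spleen, and lowest in the burn shams at 7 day in blood (8332 ± 1977) and at 2 hr after burn in spleen (1293 ± 494). In spleen the highest Slfn8 groups were trauma-hemorrhage at 2 hr (4522 ± 902) and 1 day (4057 ± 1651; SD, n = 4), and the lowest was burn at 7 day (666 ± 133). In blood the highest was trauma-hemorrhage at 2 hr (4147 ± 1028) and the lowest burn at 1 day (189.8 ± 32.6). For Samd9l the highest group was trauma-hemorrhage at 2 hr and the lowest burn at 1 day in both tissues (8054 ± 2391 and 526 ± 205 in blood). Of the 15 pairs of neighbours in the order of 16 groups, 13 overlapped for Slfn1 in either tissue, 15 and 14 for Slfn2 in blood and spleen, 15 for Slfn4 in either, 14 and 15 for Slfn5, 13 and 14 for Slfn8, and 14 and 13 for Samd9l. Neighbours were set by sorting the means, so overlap between them is likely whatever the groups, and overlap of ranges does not test a difference. The rank of a group beside its neighbours is therefore a description.

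The rest of the interferon pathway was read from lists of its ligands, receptors, kinases and transcription factors, inhibitors and 35 targets. In the spleen at 2 hr after trauma-hemorrhage 30 of 33 target genes rose and none fell, with a median log2 change of 2.03, against -0.06 over all genes. The 4 with the smallest p were the antiviral genes Ifit2 (3.41 ± 0.25) and Ifit3 (3.91 ± 0.29), the chemokine Cxcl10 (4.76 ± 0.36) and the GTPase Irgm1 (2.45 ± 0.20; log2 change and SE). Among kinases and transcription factors 4 of 11 rose, namely Irf7 (2.31 ± 0.32), Stat2 (2.16 ± 0.32), Irf9 (0.89 ± 0.19) and Irf1 (0.89 ± 0.19). The inhibitors Usp18 (3.53 ± 0.31) and Socs3 (3.01 ± 0.40) rose too, and of 5 receptors 0 passed in limma, with 1 at an unadjusted p under 0.05. The 1 ligand tested in spleen, Ifng, which encodes interferon gamma, rose there (log2 1.61 ± 0.44). In blood at 2 hr 26 of 33 targets rose, led by Cxcl10 (5.84 ± 0.48), Ifi47 (2.29 ± 0.20), Irgm1 (2.89 ± 0.27) and Parp14 (2.20 ± 0.23). At 1 day after trauma-hemorrhage 27 of 33 rose in spleen and 21 in blood, where 1 fell. Without dim arrays and with quantile normalization, tried for this list after seeing the data, between 26 and 33 targets rose at 2 hr in either tissue.

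At 1 day after burn the targets went the other way, with 14 of 33 falling in blood and 20 in spleen and 0 rising in either. The median log2 change of the list was -0.66 in blood, against -0.01 over all genes, and -0.72 in spleen. With the 1 burn spleen array that was not dim, 9 targets passed as lower, on a spread taken from the other groups. In spleen the smallest p belonged to Trim30a (-1.65 ± 0.15), Parp14 (-1.75 ± 0.19), Ifi35 (-2.34 ± 0.30) and Gbp2 (-2.30 ± 0.30; log2 change and SE). Of the transcription factors Irf2 (-3.19 ± 0.19), Irf9 (-1.56 ± 0.19), Irf8 (-1.53 ± 0.19) and Irf3 (-2.24 ± 0.32) fell with them. The same 4 transcription factors had the smallest p in blood, where Irf2 fell by 2.09 on the log2 scale and 3 of 11 of the list rose. Ifng moved apart from the targets in blood, where it rose (log2 2.23 ± 0.54), and with them in spleen, where it fell (log2 -1.49 ± 0.44). The receptor chains Ifnar2 (1.42 ± 0.26) and Ifngr1 (0.97 ± 0.24) rose in blood. After LPS at 2 hr 7 of 33 targets rose, and the count was 4 with quantile normalization.

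Likeness between genes was measured as Pearson r of their log2 changes over the 18 comparisons, a description with points that share shams, array brightness and cell makeup. Slfn1 and Slfn2 had r = 0.936, and each was the gene most like the other among 11062 genes tested throughout. Next came Trim12c (0.935) and Trim30a (0.933) for Slfn1, and 1600014C10Rik (0.916) and Sh3bp2 (0.913) for Slfn2. Slfn5 was most like Slfn8 (0.878), then Irgm1 (0.876) and Zbp1 (0.869). Slfn8 was most like 9330175E14Rik (0.946), Ifi213 (0.925) and Ddx58 (0.917), and Samd9l most like Ifi209 (0.959), Trim56 (0.957) and Trim12a (0.957). Slfn4 stood apart, most like Wfdc17 (0.845), Stfa2l1 (0.834) and the formyl peptide receptor Fpr2 (0.821), and least like Slfn8 of the members (0.168). With the median change of the interferon targets r was 0.866 for Slfn8, 0.858 for Slfn5, 0.752 for Slfn1, 0.748 for Samd9l, 0.731 for Slfn2 and 0.482 for Slfn4. With the median of the neutrophil markers it was 0.525 for Slfn4 and between -0.30 and 0.17 for the other 5.

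**Figure D5:**
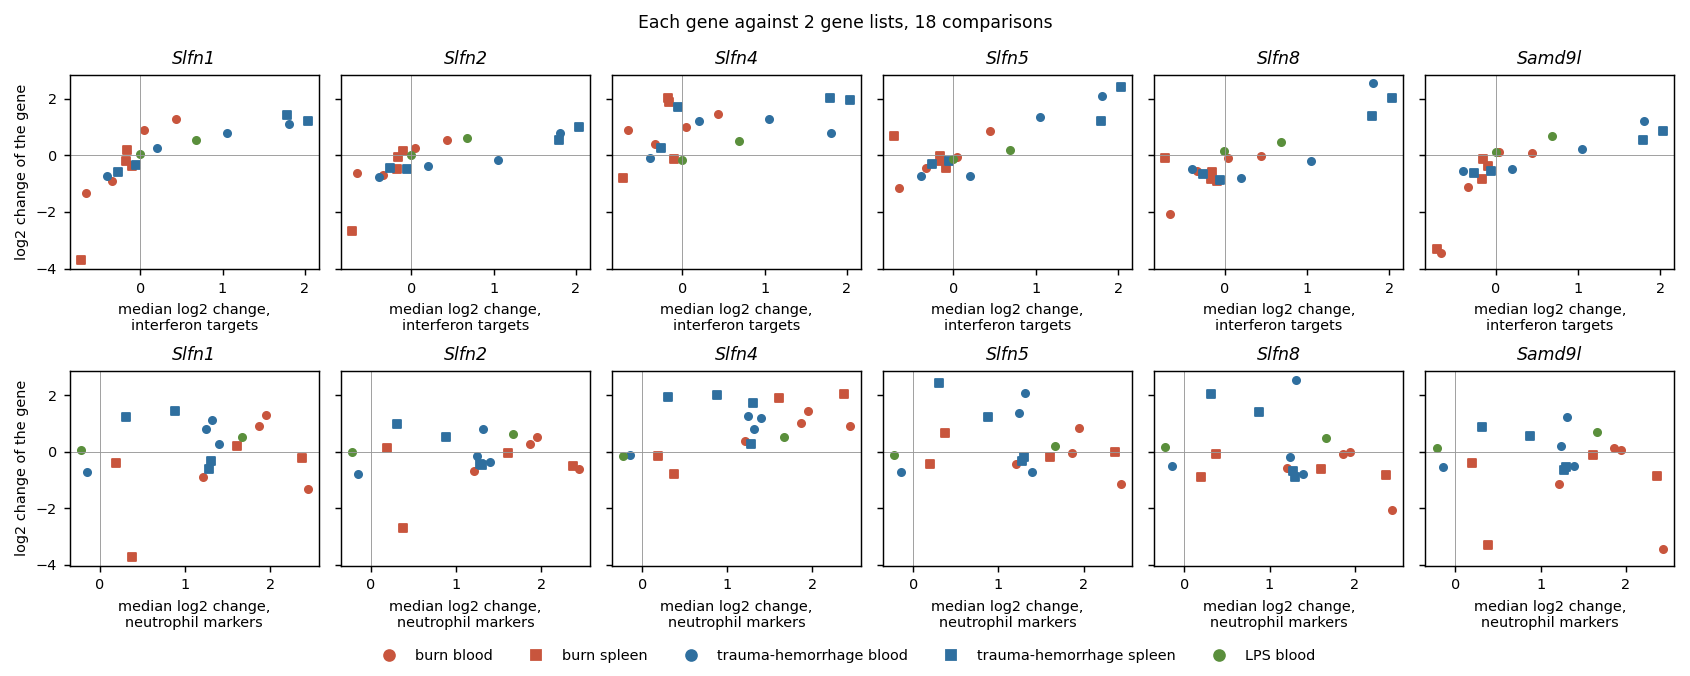
Log2 change of each gene (vertical axes) against the median log2 change of 33 tested interferon targets (upper row) and 11 tested neutrophil markers (lower row). Each point is 1 of 18 comparisons, circles for blood and squares for spleen. Slfn5 and Slfn8 followed the interferon targets with r of 0.858 and 0.866, and Slfn4 with 0.482.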

How the data were processed

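Blood leukocyte and splenocyte RNA was hybridized to Affymetrix mouse whole-genome arrays. The deposited values are linear-scale intensity values from MAS5 in GCOS 1.4, according to the submitters' processing notes. Of 45037 probe sets, 64 were controls, 34945 had 1 gene, 932 several and 9160 none. Each of 18193 genes was read from its brightest probe set that was not marked as cross-hybridizing, and 18032 matched the reference annotation. Values entered limma 3.58.1 (R 4.3.3) as log2(value + 32), with a trended variance and Benjamini-Hochberg adjustment. The filter kept genes whose signal exceeded the median of the array on 4 arrays or more: 14730 in blood (64 arrays), 13595 in spleen (64), 11851 in the LPS set (16) and 15706 in both injury tissues (128). Figures were drawn with matplotlib 3.10.9.

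Members and gene lists were chosen with earlier results of these data known. Named genes are the members, the other Schlafen genes, the 3 genes most like each member and up to 4 of each interferon list with the smallest p. Settings tried were pseudocounts of 1 and 100, no filter, quantile normalization, all probe sets averaged or tested each, replicate or hybridization day as a block, either day alone, the 8 arrays alone, the control level as a covariate, no dim arrays, and leaving out each array. With 4 arrays per group the precision is limited by their number. Scripts were tested on simulated data.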

Additional observations from a re-analysis of the deposited data

Results flagged for a closer look

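Of 216 groups of 4 arrays, 9 held an array far from its group, where chance alone gives about 1 in 20. Slfn2 stood at 13220.5 on replicate 2 of trauma-hemorrhage blood at 1 day, with the others at 5507 to 5649. Slfn4 stood low, at 11775, on replicate 2 of burn blood at 2 hr, with the others at 14433 to 14759. Slfn8 was low on replicate 3 of trauma-hemorrhage blood at 7 day, at 495 against 1046 to 1196, and on replicate 4 of burn spleen at 1 day, at 442 against 1083 to 1142. The latter was the 1 array of its group that was not dim. Slfn2 was low on replicate 2 of the burn sham spleens at 3 day, at 2270.2 against 3619 to 3799. In the LPS arm, Slfn2 was low on replicate 1 with LPS at 1 day (935 against 1126 to 1159.8), Slfn4 low on replicate 1 of the shams at 2 hr (1621 against 4359 to 4864), Slfn8 high on replicate 4 of the same shams (781 against 273 to 289.8), and Slfn8 high on replicate 3 with LPS at 1 day (281 against 183 to 197).

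The effects of burn and trauma-hemorrhage differed, by limma's moderated F test over 4 times, for 11 of 12 pairs of member and tissue, as for 19.8% of all genes in blood and 19.9% in spleen. The adjusted p in blood was 6.00e-06 for Slfn1, 0.000286 for Slfn2, 0.000202 for Slfn5, 7.52e-08 for Slfn8 and 8.15e-14 for Samd9l in limma. In spleen it was 1.93e-13 for Slfn1, 3.08e-12 for Slfn2, 0.000276 for Slfn4, 0.000169 for Slfn5, 1.50e-08 for Slfn8 and 1.42e-16 for Samd9l in limma. The genes were proposed from the changes that enter these tests.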

How the results depend on the processing

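The 36 called values kept their sign in all 751 alternatives run and stayed called in 647. The 72 values not called were called in 53 of 1463. Within 1 hybridization day, with 2 arrays against 2, all 35 called injury values kept their sign on both days, but fewer passed. On the day of replicates 1 and 2, 3 values were called after trauma-hemorrhage in blood and 5 in spleen, against 7 and 13 over all arrays. On the day of replicates 3 and 4, 4 were called after burn in blood and 4 in spleen (7 and 8 over all arrays), and 0 after trauma-hemorrhage in blood and 7 in spleen. Fewer arrays were compared there. The LPS count was 0 in a fit of its 8 arrays alone, against 1, and that cause was not tested. Leaving out single arrays gave 6 to 8 calls after burn in blood, 6 to 11 after trauma-hemorrhage in blood (11 without replicate 3 of the injured arrays at 3 day), 7 to 9 after burn in spleen, 10 to 14 after trauma-hemorrhage in spleen and 1 to 2 after LPS. It gave 5 to 6 members differing between injuries in blood and 6 in spleen, 0 to 1 among sham times in either tissue, 0 between LPS times and 4 to 5 between sham tissues.

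With the replicate number as a block, 7 values were called after burn and 7 after trauma-hemorrhage in blood, 9 and 13 in spleen and 1 after LPS, and 5 and 6 members differed between the injuries in blood and spleen. The numbers were not taken as pairs of mice: in 0 of 18 comparisons did every same-numbered pair correlate above 0.1 (r from -0.47 to 0.53). With so few arrays per group that rule cannot exclude a pairing. Without dim arrays, trauma-hemorrhage blood at 7 day had no injured array left, so the trauma-hemorrhage count and the difference between injuries in blood were not run. Dim arrays limit what can be read for low signals such as Slfn5.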
